A study of Mus musculus with 6 samples.

Results

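The genes described here encode the proteins of the cell's ribosomes, in the cytosol and in mitochondria. They were taken by name from the deposited gene table: names that start with Rpl or Rps and a number, with Rplp0, Rplp1, Rplp2 and Rpsa, gave 81 cytosolic genes, and names that start with Mrpl or Mrps and a number gave 78 mitochondrial genes, together 159 of 17438 genes. Names with -ps, which mark pseudogene copies, were left out. Of these genes, 80 cytosolic and 78 mitochondrial members passed the filter on low counts and were tested. Rpl39l was the member that did not pass.

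The libraries come from ILC2s (group 2 innate lymphoid cells), lymphocytes that release type 2 cytokines at barrier surfaces. They had been sorted out of mouse lung, given the cytokine IL-33 in both groups, and cultured before RNA was taken. There were 3 wild-type libraries (WT1 to WT3), whose strain is given as CB57BL/6, and 3 libraries from mice with the targeted allele B6.129S4-Cd48tm1Rsr/EpaulJ (KO1 to KO3), which lack the cell-surface receptor CD48. The design text speaks of duplicates, whereas 3 libraries a group were analysed, and the labels do not say whether they came from separate animals, so p-values measure the spread between libraries, which may be technical. The comparison of KO with WT asks which transcripts differ between these groups of mice. The groups carry different strain names, so loss of CD48 cannot be told apart from other differences between the strains or colonies. Such differences include any in the DNA beside the targeted allele, and their part was not tested.

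The cytosolic ribosome translates messages of the nuclear genome, and its proteins are made in step with one another because each ribosome holds a single copy of most of them. Their messages commonly begin with a run of pyrimidines, the TOP motif, through which the mTORC1 kinase and the protein LARP1 set how strongly they are translated. The mitochondrial ribosome is a separate machine, related to that of bacteria, which translates the few messages of the mitochondrial genome for the respiratory chain. All of its proteins are encoded in the nucleus and imported. In lymphocytes, both kinds of ribosome are made in larger amounts when cells are activated and grow.

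The library totals ran from 14928623 to 27450400 estimated counts. The Cd48 transcript stood at 58.2, 46.6 and 41.6 CPM (counts scaled to a fixed library size) in WT and 4.52, 5.59 and 4.40 in KO, so each library matched its label. The library WT1 stood apart from the other 5 in the mitochondrial class and in many other genes, and values without it are given beside those with all 6 for the results that turn on it. Transcripts of the mitochondrial genome made up 0.264%, 0.619% and 0.535% of counts in WT1 to WT3, and 0.678%, 0.737% and 0.777% in KO1 to KO3. WT1 was the lowest, and every KO library also lay above WT2 and WT3. The 13 ILC2 markers, all in the table, summed to 11859 to 15357 CPM across WT libraries and to 13458 to 14226 CPM across KO libraries. Summed T cell markers (6 of 8 in the table, without Cd4 and Cd8a) ran from 170 to 214 CPM for WT against 123 to 140 CPM for KO, and summed epithelial markers (6 of 6) from 30.2 to 79.5 CPM against 9.90 to 23.6 CPM. Summed macrophage and monocyte markers (7 of 8, without Marco) lay at 217 to 327 CPM against 209 to 226 CPM, and summed mast cell and basophil markers (2 of 5, without Mcpt8, Fcer1a and Ms4a2) at 114 to 281 CPM against 272 to 275 CPM. The part of these transcripts in the results below was not tested.

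The starts of these genes differ in sequence between the classes. RefSeq promoter windows of 300 bases (250 before and 50 after the annotated start, build GRCm38.p6) were matched by symbol for 59 of 81 cytosolic and 69 of 78 mitochondrial genes. A TOP-like start was counted where a C within 5 bases of the annotated start opens a stretch of at least 6 pyrimidines, whatever base stands before that C. It was present in 25 of 59 cytosolic windows (42.4%), 4 of 69 mitochondrial windows (5.8%) and 10.2% of all 32851 windows in the table. When the base before the C also had to be a purine, so that the whole run begins there, the counts were 14 of 59 (23.7%), 4 of 69 and 6.85% of all windows. The following cytosolic starts, 40 bases each and written 5′ to 3′ along the gene, are shown because these genes are described below; capitals mark the stretch counted from its first C, and lower-case pyrimidines can precede it.
Rpl35 (chr2:39005112-39005151, minus strand): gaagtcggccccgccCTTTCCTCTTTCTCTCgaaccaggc
Rpl38 (chr11:114668560-114668599, plus strand): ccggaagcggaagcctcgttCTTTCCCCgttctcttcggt
Rps9 (chr7:3704021-3704060, plus strand): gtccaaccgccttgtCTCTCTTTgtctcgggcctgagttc
Rps6 (chr4:86857348-86857387, minus strand): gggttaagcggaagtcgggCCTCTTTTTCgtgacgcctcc
Rplp2 (chr7:141447631-141447670, plus strand): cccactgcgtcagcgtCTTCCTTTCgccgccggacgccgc
Rps18 (chr17:33955646-33955685, minus strand): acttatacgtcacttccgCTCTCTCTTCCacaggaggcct
Rps7 (chr12:28635934-28635973, minus strand): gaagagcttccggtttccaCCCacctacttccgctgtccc
The stretch so counted was 16 bases long in Rpl35, where further pyrimidines precede it, 11 in Rps18 and 10 in Rps6, whereas Rps7 had 3 bases and was not counted as TOP-like.

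Mitochondrial starts were searched on both strands for a site of the factor NRF-1 (the letters in capitals in the Mrps21 line below, with any base at the fifth position) and a site of ETS factors (CCGGAAG). The NRF-1 letters were found in 13 of 69 mitochondrial windows (18.8%), 4 of 59 cytosolic windows (6.78%) and 4.6% of all windows. The ETS letters were found in 36.2% of mitochondrial and 40.7% of cytosolic windows, against 8.86% of all. A TATA box (TATAAA) was found in 5.8% of mitochondrial and 10.2% of cytosolic windows (13.6% of all). The motifs as spelled here do not contain one another. These are matches of letters and no evidence of binding. In the lines below, 40 bases around a match are written 5′ to 3′ along the gene, with the matched letters in capitals.
Mrps21 (chr3:95871580-95871619, minus strand, NRF-1 letters): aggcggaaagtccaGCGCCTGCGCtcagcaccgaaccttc
Mrpl44 (chr1:79775968-79776007, plus strand, NRF-1 letters on the opposite strand): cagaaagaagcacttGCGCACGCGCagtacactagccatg
Mrpl12 (chr11:120484542-120484581, plus strand, NRF-1 letters): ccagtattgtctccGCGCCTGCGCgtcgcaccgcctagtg
Mrpl33 (chr5:31613931-31613970, plus strand, ETS letters): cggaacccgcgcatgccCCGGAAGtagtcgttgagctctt
Mrps12 (chr7:28741802-28741841, minus strand, ETS letters): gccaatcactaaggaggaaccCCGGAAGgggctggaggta

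The classes also differ in gene structure and level. The median length of the longest protein-coding transcript was 910 bases for cytosolic and 1328 bases for mitochondrial genes, against 3120 bases for all 11152 tested protein-coding genes (GENCODE annotation of GRCm38). Small nucleolar RNA genes lie inside 29 of 81 cytosolic genes (56 such RNAs) and inside 0 of 78 mitochondrial genes. In transcript level per kilobase of that length, averaged over the 6 libraries, the cytosolic median was 264 CPM per kb and the mitochondrial median 38.4 CPM per kb. Levels of tested genes ran from 22.7 to 929 CPM per kb (cytosolic) and from 5.37 to 305 CPM per kb (mitochondrial). Among neighbours in rank, the ranges over the 6 libraries overlapped in all but 3 of 77 cytosolic and 1 of 77 mitochondrial pairs. The order of close ranks is therefore uncertain. Neighbours in a long sorted list are close in any case, so this overlap does not tell how steep the ranking is.

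**Figure D1:**
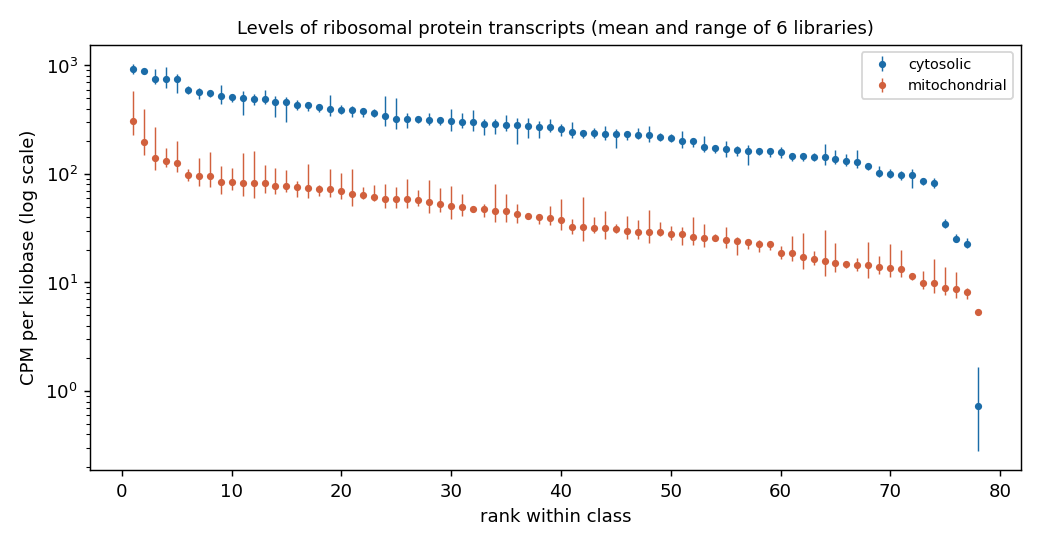
Level per kilobase of transcript (CPM per kb, log axis) against rank within each class, for the 78 cytosolic and 78 mitochondrial genes with a protein-coding transcript; points are means and lines are ranges over the 6 libraries. The cytosolic genes lie above the mitochondrial genes of the same rank except at the last rank, where Rpl39l stands at 0.721 CPM per kb.

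Among the highest cytosolic levels were those of Rpl13 (929 ± 81.0 CPM per kb, SD, n = 6), the stalk base protein Rplp0 (886 ± 23.5), the S6 kinase substrate Rps6 (757 ± 93.3) and Rps18 (748 ± 104), which lies at the contact with the large subunit. The lowest tested were Rps15a (22.7 ± 1.64 CPM per kb), Rpl22 (25.4 ± 1.83), which is known for its need in T cell development, Rps20 (34.9 ± 2.43), Rps21 (83.3 ± 6.80) and Rps24 (86.2 ± 4.29). Rps15a and Rps20 have a long annotated transcript (5179 and 3706 bases), which lowers a level per kilobase if shorter forms are the ones made. In the mitochondrial class, Mrpl33 was highest (305 ± 135 CPM per kb), followed by Mrpl42 (197 ± 97.3), Mrps21 (140 ± 65.6), Mrpl20 (131 ± 22.2) and Mrpl18 (126 ± 36.4). The lowest were Mrpl47 (5.37 ± 0.270 CPM per kb), which lies near the exit of the peptide tunnel, Mrps35 (8.23 ± 0.654), Mrps25 (8.68 ± 1.89), Mrpl1 (8.94 ± 2.43) and Mrpl48 (9.81 ± 3.28). The wide SDs of Mrpl33, Mrpl42 and Mrps21 come with high values in WT1, given below.

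As a share of all counts, the cytosolic genes took 2.14%, 2.31% and 2.32% of the WT libraries (in the order of their numbers, as throughout) and 2.01%, 2.18% and 2.23% of the KO libraries. The means were 2.26% ± 0.104 in WT and 2.14% ± 0.115 in KO (SD, n = 3). The groups overlapped because WT1 lay below KO2 and KO3, while WT2 and WT3 lay above all KO libraries. The mitochondrial genes took 0.656%, 0.459% and 0.447% in WT, and 0.421%, 0.456% and 0.449% in KO (means 0.521% ± 0.118 and 0.442% ± 0.0181, SD, n = 3). WT1 was the highest of the 6 here, and the other 5 lay within 0.421% to 0.459%. The log2 ratio of summed cytosolic to summed mitochondrial counts was 1.70, 2.33 and 2.37 for WT and 2.25, 2.26 and 2.31 for KO. WT1 had the lowest ratio, and WT2 and WT3 lay just above the KO libraries. In RNA from bulk cells, fewer cells of a type and less RNA per cell cannot be told apart.

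**Figure D2:**
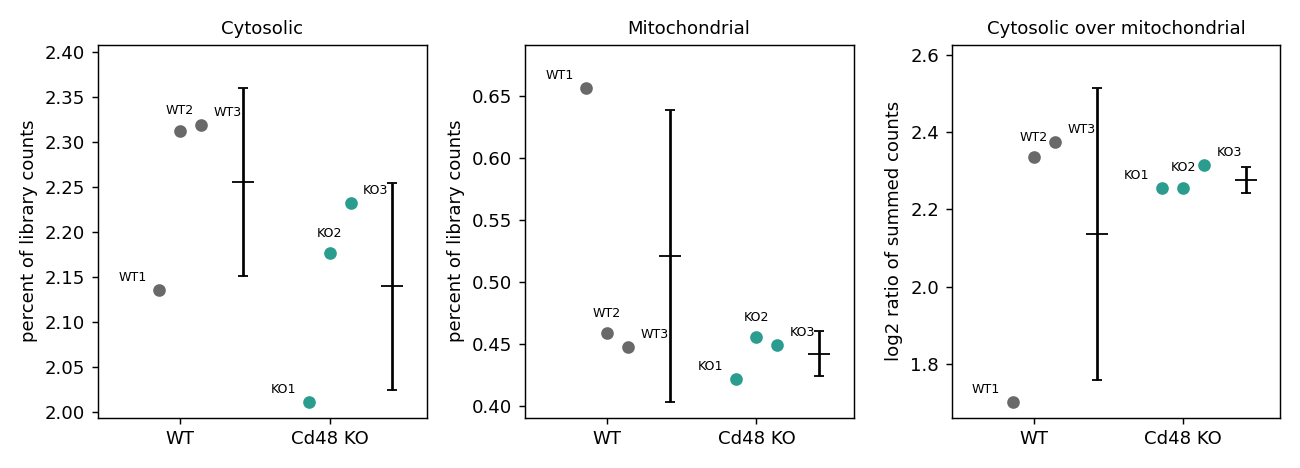
Percent of library counts in cytosolic and in mitochondrial ribosomal protein genes, and the log2 ratio of their summed counts, in each library; points are libraries, and the bar beside each group is its mean ± SD (n = 3), on axes that do not start at 0. WT1 is apart in the mitochondrial share (0.656%) and in the ratio (1.70).

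With all 6 libraries, no ribosomal protein gene passed the test. By the quasi-likelihood test of edgeR, adjusted over 13317 genes by the Benjamini-Hochberg method, 0 of 80 cytosolic and 0 of 78 mitochondrial members had an adjusted p under 0.05, where 4 genes in all (0.03%) did, 0.015% in the lower direction. At an unadjusted p under 0.05, 3 cytosolic members (Rps4l, Rps7 and Rps9, all lower in KO) and 0 mitochondrial members passed, against 6.89% of all genes, 3.95% in the lower direction. DESeq2 called 0 members of either class (0.811% of all genes) and limma-voom called 0 (0.03% of all genes). Weighted by sample quality, limma-voom called 1 cytosolic member, Rps4l, and 0 mitochondrial members (0.713% of all genes). The signs were uneven: 67 of 80 cytosolic and 70 of 78 mitochondrial members had a fitted log2 fold change (KO over WT) below 0, against 50.5% of all genes. The medians were −0.10 for the cytosolic and −0.25 for the mitochondrial class, and −0.00 over all genes. Members of a class share their libraries, so their common sign is not a set of separate observations.

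The mitochondrial pattern rested on WT1. WT1 had the highest level of the 6 libraries for 67 of 78 mitochondrial members (85.9%) and for 31 of 80 cytosolic members (38.8%), against 36.8% of all genes. It had the lowest level for 6 of 78 mitochondrial members (7.69%) and 22 of 80 cytosolic members (27.5%), against 39.5% of all genes. The median log2 difference of WT1 from the mean of WT2 and WT3 was 0.51 for mitochondrial members, −0.05 for cytosolic members and −0.03 over all genes. Without WT1, 48 of 78 mitochondrial members had a negative log2 fold change and the median was −0.03, and 26 members went from a negative to a positive sign. The cytosolic class did not follow. Without WT1, 78 of 80 cytosolic members had a negative log2 fold change, with a median of −0.11, against 49.8% of all genes and a median of 0.00. When KO1, the library with the lowest cytosolic share of counts, was left out too, 70 of 81 were negative. The cytosolic median was then −0.07, against 0.01 over all genes, 48.6% of which were negative.

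**Figure D3:**
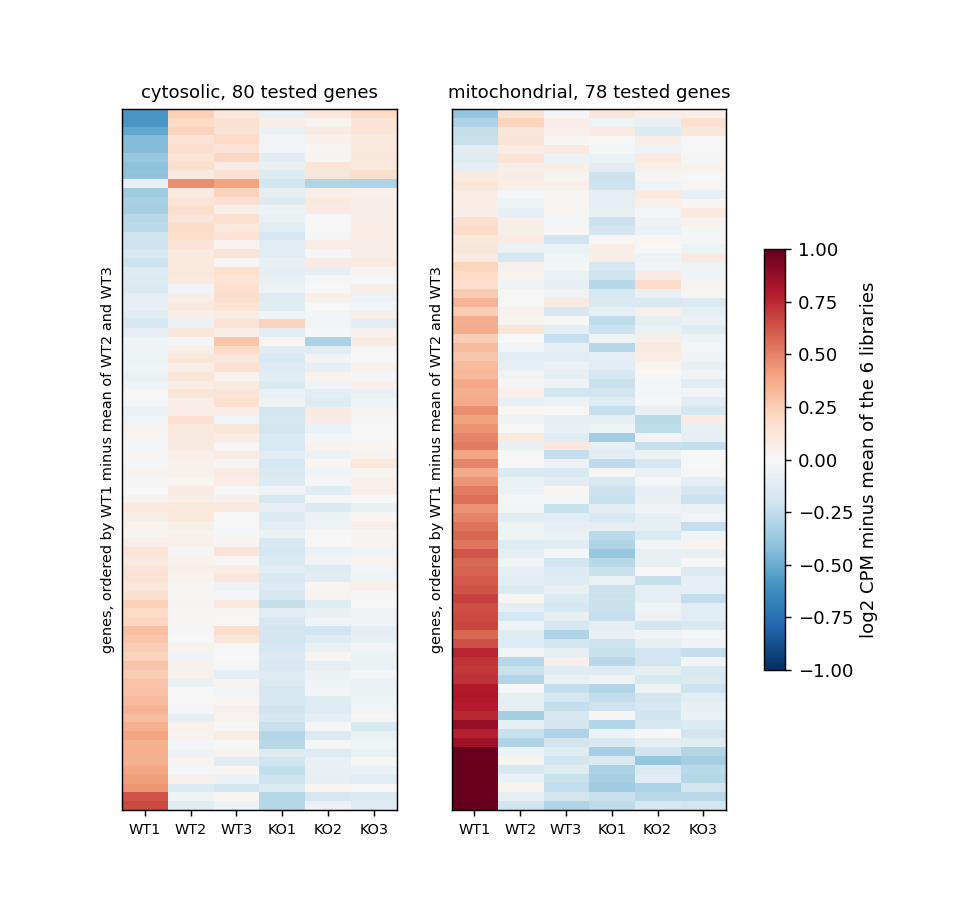
Log2 CPM of each tested gene in each library, minus the mean of the gene over the 6 libraries (colour scale limited to −1 to 1); genes of each class are ordered by the difference of WT1 from the mean of WT2 and WT3. WT1 is the highest library for 67 of 78 mitochondrial genes, and for 31 of 80 cytosolic genes.

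The deviation of WT1 depended on transcript length in other genes, and the 2 classes sat differently on that trend. Among other tested protein-coding genes, the median log2 difference of WT1 from WT2 and WT3 was 0.53 for transcripts under 1000 bases (481 genes), 0.34 from 1000 to 2000 bases (2175 genes), 0.00 from 2000 to 4000 bases (4540 genes) and −0.52 at 4000 bases and above (3780 genes). Mitochondrial members stood at 0.61 (24 genes) and 0.40 (29 genes) in the first 2 ranges, close to other genes of their length. In the longer ranges they stood at 0.73 (16 genes) and 0.53 (9 genes), above other genes of their length, though on few genes. Cytosolic members stood at 0.01 under 1000 bases (44 genes) and −0.05 from 1000 to 2000 bases (27 genes), below other genes of their length. A length trend was also put in the offsets, on the longest transcript of any type rather than the longest protein-coding one. By that measure the class medians of length were 1049 bases (cytosolic) and 1866.5 bases (mitochondrial). With this trend, the median log2 fold change of the cytosolic class was 0.00, with 40 of 80 negative. That of the mitochondrial class was −0.15, with 66 of 78 negative. Without WT1 and with the trend, the medians were −0.08 (71 of 80 negative) and −0.03.

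**Figure D4:**
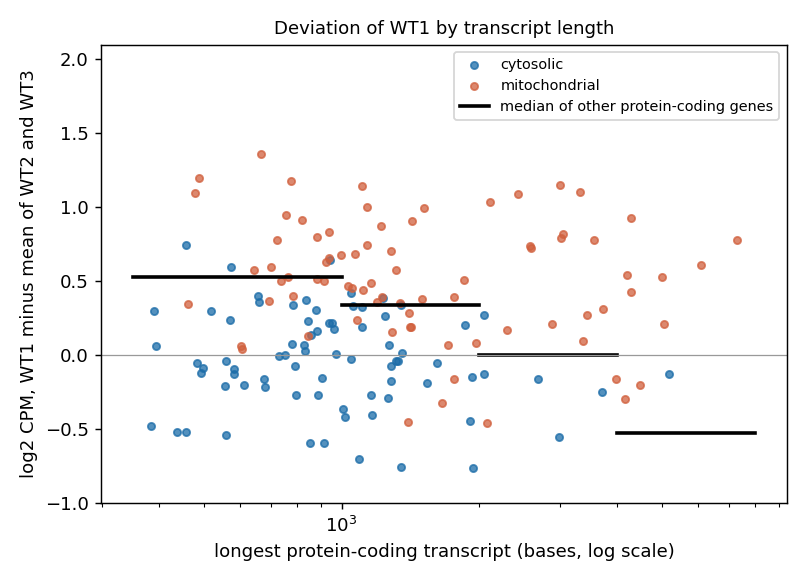
Log2 difference of WT1 from the mean of WT2 and WT3 against the length of the longest protein-coding transcript (bases, log axis); each point is a tested gene, and black lines are medians of other protein-coding genes in 4 length ranges. The black line falls from 0.53 to −0.52, while the cytosolic genes of the 2 shorter ranges have medians of 0.01 and −0.05.

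Separation between the groups was counted as well. With all 6 libraries, every KO library lay below every WT library for 27 of 80 cytosolic and 14 of 78 mitochondrial members, against 9.11% of all genes, and every KO library lay above for 0 members of either class, against 10.2% of all genes. Without WT1, KO lay below for 50 of 80 cytosolic and 16 of 78 mitochondrial members (14.3% of all genes). KO lay above for 1 cytosolic member, Rps27l, and 6 mitochondrial members, Mrpl19, Mrpl32, Mrpl37, Mrpl45, Mrpl50 and Mrps9 (15.8% of all genes). Without WT1, the edgeR test with Benjamini-Hochberg adjustment called 1 of 80 cytosolic members and 0 of 78 mitochondrial members, where it called 248 of 13643 genes (1.82%), 0.652% in the lower direction. DESeq2 without WT1 called the same numbers, Rps4l again and 0 mitochondrial members (3.02% of all genes). At an unadjusted p under 0.05 there were 21 cytosolic members, all lower in KO (5.6% of all genes were lower), and 2 mitochondrial members, Mrpl33 lower and Mrpl32 higher (13.7% of all genes in either direction). With KO1 left out too, 10 of 81 cytosolic members passed this unadjusted threshold, 9 of them lower. Of all 13532 genes in that fit, 2172 passed, 1112 of them lower. Without WT1 alone, the size of the cytosolic differences was small, with a lower quartile of −0.16 and an upper quartile of −0.07 on the log2 scale.

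**Figure D5:**
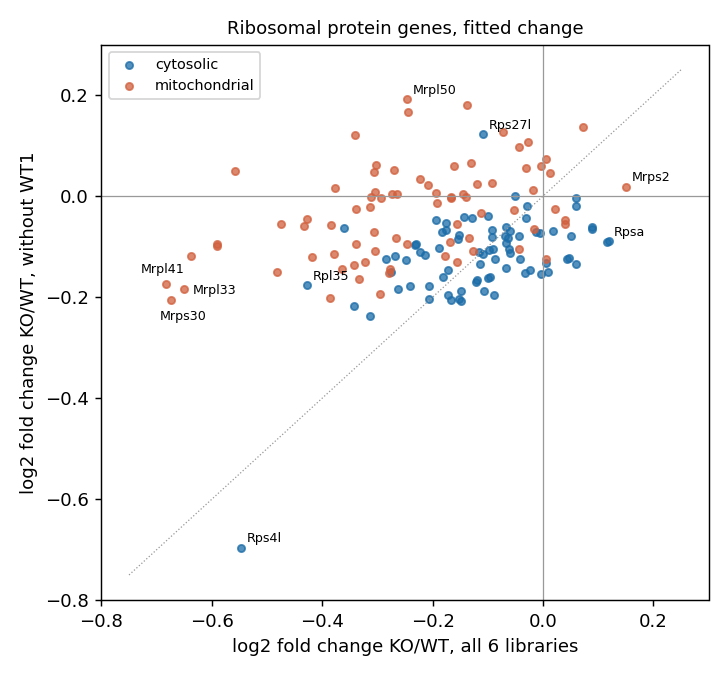
Fitted log2 fold change (KO over WT) of each tested gene without WT1 against that with all 6 libraries; the dotted line marks equal values. Cytosolic genes lie below 0 on the vertical axis for 78 of 80 genes, mitochondrial genes for 48 of 78, and Rps4l is the lowest point at −0.70.

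The cytosolic member past the threshold without WT1 was Rps4l, at 148354656 to 148355598 on chromosome 6, plus strand. The GENCODE annotation lists it as a transcribed processed pseudogene, a copy of the small-subunit gene Rps4x without introns. Its level was 20.04, 29.4 and 28.1 CPM in WT, and 18.7, 17.3 and 17.1 CPM in KO. All 3 KO libraries were below all WT libraries, with WT1 only slightly above KO1. With all 6 libraries its log2 fold change was −0.55 (SE 0.18, edgeR adjusted p = 0.690), and without WT1 it fell, with a log2 fold change of −0.70 (SE 0.12, edgeR adjusted p = 0.0132). When a further library was left out with WT1, the edgeR adjusted p was 0.0178 without KO1, but 0.0772 without WT2, 0.0580 without WT3, 0.0766 without KO2 and 0.0802 without KO3. Rps4x itself, on chromosome X, stood at 319, 323 and 312 CPM in WT and 287, 300 and 324 CPM in KO. Its groups overlapped, with KO3 the highest of the 6, and its log2 fold change was −0.07 (SE 0.10) with all 6 libraries and −0.06 without WT1. Because reads of near-identical copies can be split between them, the value of Rps4l is uncertain.

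Other members with paralogs were read beside them. Rps27, a zinc-binding small-subunit protein, stood at 99.2, 136 and 149 CPM in WT and 119, 133 and 131 CPM in KO. Its p53-inducible paralog Rps27l stood at 304, 204 and 198 CPM in WT and 204, 227 and 224 CPM in KO. WT1 was the lowest of the 6 libraries for Rps27 and the highest for Rps27l. The fitted log2 fold changes went from −0.00 (SE 0.17) with all 6 libraries to −0.15 (SE 0.08) without WT1 for Rps27, and from −0.11 (SE 0.18) to 0.12 (SE 0.07) for Rps27l. Without WT1 neither passed the test (edgeR adjusted p = 0.426 and 0.474). Rpl39, a small protein of the exit tunnel, stood at 82.1, 92.9 and 95.9 CPM in WT and 80.2, 87.2 and 85.3 CPM in KO. Its testis-enriched paralog Rpl39l stood at 1.33, 0.601 and 0.718 CPM in WT and 0.366, 0.246 and 0.226 CPM in KO, too few counts to be tested. Rpl10, on chromosome X, stood at 287, 424 and 444 CPM in WT and 380, 399 and 415 CPM in KO. WT1 was the lowest library for Rpl10, as for Rps27, and its log2 fold change went from 0.05 to −0.12 without it. All KO values of Rpl39l lay below the WT values, and those of Rpl39 overlapped with WT1 only.

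Among the large-subunit proteins with a known place, the stalk that recruits the GTPases of translation is built from Rplp0, Rplp1, Rplp2 and Rpl12. Rplp0 stood at 1224, 1236 and 1187 CPM in WT and 1148, 1204 and 1223 CPM in KO. Rplp1 stood at 218, 230 and 232 CPM in WT and 188, 204 and 213 CPM in KO. Rplp2 stood at 193, 167 and 175 CPM in WT and 139, 150 and 163 CPM in KO. Rplp0 overlapped between the groups, whereas Rplp1 and Rplp2 were lower in all 3 KO libraries, with log2 fold changes of −0.17 (SE 0.10) and −0.24 (SE 0.12) that did not pass the test (edgeR adjusted p = 0.690 for both), and −0.20 and −0.18 without WT1. Rpl12 stood at 208, 176 and 169 CPM in WT and 153, 160 and 163 CPM in KO, again with no overlap (log2 fold change −0.21, and −0.12 without WT1), and its exons overlap those of Lrsam1 on the opposite strand. Rpl5 and Rpl11, which carry the 5S RNA and can bind the p53 regulator MDM2, had fitted differences of −0.14 (SE 0.12) and −0.09 (SE 0.10) on the log2 scale, neither past the test, and of −0.04 (SE 0.06) and −0.08 (SE 0.08) without WT1. Rpl5 stood at 651, 565 and 513 CPM in WT and 499, 525 and 542 CPM in KO, and Rpl11 at 151, 150 and 148 CPM in WT and 129, 144 and 147 CPM in KO. The groups overlapped for Rpl5 and not for Rpl11. Of the tunnel proteins, Rpl4 stood at 787, 894 and 903 CPM in WT and 830, 839 and 892 CPM in KO, and Rpl17 at 158, 167 and 157 CPM in WT and 153, 145 and 164 CPM in KO, and both overlapped.

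Small-subunit proteins of messenger entry and decoding split by how WT1 stood. Rps2 stood at 381, 635 and 605 CPM in WT and 519, 575 and 597 CPM in KO, and Rps3 at 412, 583 and 539 CPM in WT and 500, 547 and 543 CPM in KO. For both, WT1 was the lowest of the 6 libraries, and the sign of the log2 fold change went from 0.06 to −0.13 for Rps2 and from 0.05 to −0.08 for Rps3 when WT1 was left out. Rps23, at the decoding centre, stood at 343, 284 and 306 CPM in WT and 249, 260 and 268 CPM in KO, with no overlap (log2 fold change −0.26, SE 0.11, edgeR adjusted p = 0.690, and −0.18 without WT1). Rps15 stood at 208, 174 and 179 CPM in WT and 161, 182 and 170 CPM in KO and overlapped (log2 fold change −0.13, and −0.04 without WT1). Rps6, phosphorylated by S6 kinase when mTORC1 is active, stood at 821, 662 and 665 CPM in WT and 591, 607 and 642 CPM in KO. All 3 KO libraries were below WT, by −0.22 (SE 0.12) on the log2 scale with all 6 libraries and −0.11 (SE 0.05) without WT1, neither past the test (edgeR adjusted p = 0.690 and 0.401). Rps27a, made as a fusion with ubiquitin, stood at 190, 200 and 198 CPM in WT and 170, 186 and 187 CPM in KO. Rpl13a, known for interferon-linked control of translation, stood at 214, 219 and 216 CPM in WT and 187, 206 and 209 CPM in KO. For both, all KO libraries were below all WT libraries, with log2 fold changes of −0.11 that did not pass the test (edgeR adjusted p = 0.714 and 0.715).

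The most negative log2 fold changes among cytosolic members after Rps4l were those of Rpl35, Rpl38, Rps9 and Rps7. Rpl35, at the tunnel exit, stood at 493, 308 and 322 CPM in WT and 262, 284 and 289 CPM in KO (log2 fold change −0.43, SE 0.20, edgeR adjusted p = 0.690). Rpl38, known from mouse mutants for patterning of the axial skeleton, stood at 227, 132 and 138 CPM in WT and 118, 138 and 132 CPM in KO (−0.36, SE 0.22). In both, WT1 was the highest library, and without it the log2 fold changes were −0.18 and −0.06. Rps9 stood at 535, 418 and 429 CPM in WT and 333, 368 and 388 CPM in KO. Rps7 stood at 265, 213 and 243 CPM in WT and 190, 188 and 202 CPM in KO. Rps9 and Rps7 did not overlap between the groups. Their log2 fold changes were −0.34 (SE 0.14) and −0.31 (SE 0.12) with all 6 libraries, and −0.22 (SE 0.07) and −0.24 (SE 0.07) without WT1, which did not pass the test (edgeR adjusted p = 0.156 and 0.141). Rpl13, the highest member per kilobase, stood at 805, 741 and 783 CPM in WT and 646, 666 and 706 CPM in KO, with no overlap (log2 fold change −0.21, SE 0.10, edgeR adjusted p = 0.690, and −0.18 without WT1).

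The most positive cytosolic log2 fold changes with all 6 libraries were those of Rpsa (0.12, SE 0.22), Rpl3 (0.12, SE 0.21), Rps28 (0.09), Rps18 (0.09) and Rps2 (0.06). Rpsa, also known as a laminin receptor, stood at 362, 640 and 588 CPM in WT and 516, 586 and 625 CPM in KO. Rpl3, near the peptidyl transferase centre, stood at 406, 695 and 677 CPM in WT and 634, 625 and 669 CPM in KO. Rps18 stood at 312, 469 and 437 CPM in WT and 394, 454 and 447 CPM in KO. In each of the 5, WT1 was the lowest of the 6 libraries, and without it all 5 had a log2 fold change below 0, from −0.13 (Rps2) to −0.06 (Rps28). Of all cytosolic members, 13 went from a positive to a negative sign without WT1 and 2 from negative to positive.

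The cytosolic genes were also split by their starts. The median log2 fold change was −0.11 for 25 tested members with a TOP-like start and −0.10 for 33 without, and without WT1 it was −0.12 and −0.09. Rpl35 and Rps18, with the longest stretches among those shown, had log2 fold changes of −0.43 and 0.09, and Rps7, with 3 bases, −0.31. Large-subunit and small-subunit names had medians of −0.11 (48 genes) and −0.08 (32 genes), and −0.12 and −0.11 without WT1. Members with small nucleolar RNA genes inside had a median of −0.10 (29 genes) against −0.11 for those without (51 genes).

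In the mitochondrial class, the most negative log2 fold changes with all 6 libraries were those of Mrpl41, Mrps30, Mrpl33, Mrps21 and Mrps33. Mrpl41 stood at 125, 61.2 and 50.3 CPM in WT and 46.7, 48.1 and 52.7 CPM in KO (log2 fold change −0.68, SE 0.34, edgeR adjusted p = 0.690). Mrpl33, which has a bacterial counterpart, stood at 276, 132 and 126 CPM in WT and 109, 120 and 112 CPM in KO (−0.65, SE 0.31). Mrps21, also with a bacterial counterpart, stood at 134, 59.9 and 56.5 CPM in WT and 54.8, 52.9 and 52.8 CPM in KO (−0.64, SE 0.34). In each, WT1 held the highest level of the 6, at 1.18, 1.10 and 1.20 above WT2 and WT3 on the log2 scale. Mrps33 stood at 174, 77.2 and 79.5 CPM in WT and 69.2, 78.3 and 71.6 CPM in KO. The groups overlapped for Mrpl41 and Mrps33, and not for Mrpl33 and Mrps21. Without WT1, the log2 fold changes were −0.17 (Mrpl41), −0.18 (Mrpl33), −0.12 (Mrps21) and −0.10 (Mrps33). Mrpl42 stood at 263, 106 and 98.9 CPM in WT and 102, 109 and 107 CPM in KO, and its log2 fold change went from −0.56 to 0.05 without WT1.

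The mitochondrial stalk proteins differed in how far WT1 stood out. Mrpl10 stood at 74.0, 69.8 and 71.5 CPM in WT and 65.8, 75.4 and 66.3 CPM in KO. Mrpl11 stood at 68.5, 39.6 and 37.9 CPM in WT and 34.7, 35.4 and 34.3 CPM in KO. Mrpl12, which also binds the mitochondrial RNA polymerase, stood at 148, 107 and 93.0 CPM in WT and 101, 106 and 104 CPM in KO. WT1 was near the other libraries for Mrpl10 (0.07 above WT2 and WT3 on the log2 scale), and higher for Mrpl12 (0.57) and Mrpl11 (0.82). The log2 fold changes of Mrpl10 and Mrpl12 were −0.05 and −0.16 with all 6 libraries, and −0.03 and 0.06 without WT1. The groups did not overlap for Mrpl11 alone, with a log2 fold change of −0.48 (SE 0.24) with all 6 libraries and −0.15 (SE 0.10) without WT1 (edgeR adjusted p = 0.690 and 0.580).

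Mrps18a, Mrps18b and Mrps18c are related proteins that occupy different places in the mitochondrial ribosome, Mrps18a in the large subunit despite its name. Mrps18a stood at 72.2, 51.5 and 49.6 CPM in WT and 43.0, 45.9 and 51.4 CPM in KO. Mrps18b stood at 91.6, 79.0 and 76.4 CPM in WT and 66.3, 92.7 and 82.7 CPM in KO. Mrps18c stood at 131, 75.8 and 63.7 CPM in WT and 61.7, 73.0 and 65.4 CPM in KO. The groups overlapped for all 3. The log2 fold changes were −0.30 (SE 0.18), −0.03 (SE 0.16) and −0.43 (SE 0.27) with all 6 libraries, and −0.11 (SE 0.10), 0.06 (SE 0.13) and −0.06 (SE 0.10) without WT1. Mrps30, also held in the large subunit, stood at 101, 50.6 and 43.6 CPM in WT and 44.8, 37.9 and 39.4 CPM in KO (log2 fold change −0.67, SE 0.32, and −0.20, SE 0.11, without WT1). Mrps36, which is a part of the 2-oxoglutarate dehydrogenase complex, stood at 75.8, 50.3 and 49.9 CPM in WT and 48.2, 51.0 and 53.003 CPM in KO. Its log2 fold change was −0.21 (SE 0.19) with all 6 libraries and 0.02 (SE 0.09) without WT1.

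Mrpl58, a peptidyl-tRNA hydrolase that frees stalled ribosomes, stood at 52.1, 31.7 and 31.1 CPM in WT and 32.4, 29.0 and 32.2 CPM in KO. Mrps12, at the decoding site, stood at 97.5, 56.9 and 54.9 CPM in WT and 54.2, 58.5 and 60.8 CPM in KO. Mrpl13 stood at 87.8, 68.2 and 65.1 CPM in WT and 61.9, 69.9 and 68.1 CPM in KO. WT1 was the highest of the 6 libraries for all 3, and the other libraries overlapped. The log2 fold changes went from −0.29 (SE 0.23), −0.27 (SE 0.24) and −0.14 (SE 0.15) with all 6 libraries to −0.00, 0.05 and 0.00 without WT1. Mrpl54 stood at 47.6, 45.9 and 45.2 CPM in WT and 38.0, 42.4 and 44.0 CPM in KO, with no overlap and WT1 near WT2 and WT3 (log2 fold change −0.16, SE 0.12, edgeR adjusted p = 0.701, and −0.13 without WT1). Mrpl32 stood at 139, 85.0 and 75.1 CPM in WT and 88.5, 90.2 and 92.4 CPM in KO. Mrpl50 stood at 60.0, 30.0 and 28.4 CPM in WT and 33.8, 35.0 and 30.8 CPM in KO. In Mrpl32 and Mrpl50, WT2 and WT3 lay below all KO libraries and WT1 above them, so that the log2 fold changes went from −0.14 to 0.18 (SE 0.08) and from −0.25 to 0.19 (SE 0.11), not past the test (edgeR adjusted p = 0.365 and 0.513 without WT1).

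The most positive mitochondrial log2 fold changes with all 6 libraries were those of Mrps2 (0.15, SE 0.16), Mrpl38 (0.07), Mrps35 (0.04), Mrpl9 (0.04) and Mrpl49 (0.02). Mrps2 stood at 37.6, 54.8 and 48.8 CPM in WT and 53.6, 51.7 and 51.6 CPM in KO. WT1 was the lowest library for Mrps2, against the pattern of the class, and its log2 fold change without WT1 was 0.02. Mrpl38 stood at 33.6, 27.9 and 31.0 CPM in WT and 33.0, 30.5 and 33.8 CPM in KO and overlapped. Without WT1, Mrpl38 had a log2 fold change of 0.14, and Mrps35, Mrpl9 and Mrpl49 had values below 0 (−0.05, −0.06 and −0.03).

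Mrpl44, an RNase III-like protein of the large subunit, stood at 67.0, 33.0 and 38.6 CPM in WT and 39.3, 36.3 and 36.6 CPM in KO. Its exons overlap those of Wdfy1 on the opposite strand (chromosome 1, 79776018 to 79781445 for Mrpl44). Wdfy1 rose in KO from 9.06 ± 0.532 to 46.3 ± 1.60 CPM (SD, n = 3; log2 fold change 2.35, edgeR adjusted p = 0.00285), while the log2 fold change of Mrpl44 was −0.30 (SE 0.27) and, without WT1, 0.06 (SE 0.11). Whether reads were counted by strand is not given in the sources used here, so reads in the shared exons cannot be told apart. Mrpl57, a large-subunit member by name, stood at 62.0, 55.5 and 51.6 CPM in WT and 47.1, 57.1 and 52.2 CPM in KO. Its groups overlapped. In all, 15 cytosolic and 23 mitochondrial members share exon sequence with a gene on the opposite strand, and their counts carry the same limit. The member nearest to Cd48 on chromosome 1 was Mrps14, 11.5 Mb away (log2 fold change −0.59, edgeR adjusted p = 0.690, and −0.09 without WT1). Whether the DNA of the strains differs there, or at Wdfy1 on the same chromosome, was not tested.

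Genes that work with these ribosomes were read from lists of other names. They held 40 cytosolic partners and translation factors, 43 ribosome biogenesis genes and 42 mitochondrial translation partners, all tested. With all 6 libraries, 0 were called by edgeR, against 0.03% of all genes. The medians of log2 fold change were −0.06, −0.02 and −0.06, and −0.03, 0.04 and −0.03 without WT1. Without WT1, 1 gene of the 3 lists was called, where 1.82% of all genes were. It was Eif4g2, a relative of the initiation scaffold eIF4G (log2 fold change 0.20, SE 0.05, edgeR adjusted p = 0.0438). Eif4g2 stood at 1661, 1903 and 1978 CPM in WT and 2295, 2214 and 2185 CPM in KO. Every KO library lay above every WT library for Eif4g2, as for 10.2% of all genes. With all 6 libraries its log2 fold change was 0.27 (edgeR adjusted p = 0.690). The most abundant partners also turned on WT1. The elongation factor gene Eef1a1 stood at 1393, 2326 and 2367 CPM in WT and 2056, 1996 and 2097 CPM in KO, and its log2 fold change went from 0.02 with all 6 libraries to −0.19 without WT1 (edgeR adjusted p = 0.980 and 0.0511). The hypusinated factor Eif5a stood at 2658, 1603.1 and 1624 CPM in WT and 1481, 1550 and 1623 CPM in KO, and its log2 fold change went from −0.34 to −0.05. WT1 was the lowest library for Eef1a1 and the highest for Eif5a. Among the biogenesis genes, the nucleolar proteins Ncl, Npm1 and Nop56 went from 0.10, −0.09 and −0.05 on the log2 scale (KO over WT, all 6 libraries) to −0.02, 0.08 and 0.11 without WT1, a change of sign in each. Of the mitochondrial partners, C1qbp changed sign as well (−0.24 and 0.02), while the helicase Dhx30 went from 0.17 to 0.03 and the elongation factor Tufm from 0.31 to 0.14, none past the test.

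Rps3a1, which the name rule did not take, stood at 377, 443 and 477 CPM in WT and 403, 405 and 444 CPM in KO. Of 170 table entries with -ps names, 125 were tested and 0 were called with all 6 libraries or without WT1. Their median log2 fold change was −0.10, equal to that of the cytosolic class to 2 decimals. Reads of processed pseudogenes and of their parent genes are hard to place, and 6.58% of the non-zero cytosolic values were whole numbers within 0.001, against 54.1% of mitochondrial values and 60.2% of all values. A value that is not whole may hold reads divided among several features, but the counter is not given and this was not tested.

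The genes outside both classes whose log2 CPM followed the class mean most closely over the 6 libraries were H2-Q1 (Pearson r = 0.986), Cdk10 (0.982), Dtx4 (0.977), Gm16238 (0.974) and Gbp3 (0.969) for the cytosolic class. For the mitochondrial class they were Gimap9 and Sike1 (both 0.999), Atp5o (0.999), Fkbp3 (0.999) and Eri3 (0.999). These are the highest of all genes over 6 shared libraries, and for the mitochondrial class each has WT1 as its highest library. Atp5o, a subunit of the mitochondrial ATP synthase, stood at 337 CPM in WT1 and at 162 to 187 CPM in the other 5.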

How the data were processed

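RNA-seq of 6 libraries, 3 WT and 3 Cd48 KO by title, was analysed. Per the labels' protocols, a SMARTer Ultra Low Input kit made cDNA from 10 pg of RNA a sample. Not given in the sources used here are the counter, the annotation and the use of strand; STAR 2.7.8, DESeq2, Partek 10.0 and mm10 are named per the submitters' processing notes. Estimated counts per gene were deposited by the authors, not normalized as judged from the values, with totals of 14931769, 14928623 and 27450400 (WT) and 16336449, 16135210 and 17600475 (KO). They were rounded to whole numbers.

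Genes kept by filterByExpr (minimum count 10, total 15) were tested with edgeR 4.0.16 in R 4.3.3 (TMM, robust quasi-likelihood fit, genotype as the only term, adjusted p under 0.05 by Benjamini-Hochberg over all genes). SE is the log2 fold change divided by the root of F. CPM are scaled by TMM library sizes. Length and type come from GENCODE for GRCm38. The length trend used the longest transcript of any type, and the length ranges the longest protein-coding one. The scripts were tested on simulated data. Members and lists were chosen with earlier results of these data known. Named genes are those called with or without WT1, the 5 highest and 5 lowest log2 fold changes and levels per kilobase of each class, and the listed roles; Rpl13, Mrpl32, Mrpl50, Rps3a1, Mrps14 and Atp5o illustrate counts. A member that this rule takes and a marker list are not reported here. Alternatives were DESeq2 1.42.0, limma 3.58.1 (voom, with and without quality weights), other scalings and filters, a replicate block, a length trend (lowess, span 0.3), each library left out and, chosen after seeing the data, the fit without WT1 under further settings and a stricter TOP-like start.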

Additional observations from a re-analysis of the deposited data

How the results depend on the processing

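Over all genes, 4 were called by edgeR with all 6 libraries, 108 with DESeq2, 95 with limma-voom and quality weights, and from 0 (without KO1 or KO3) to 248 (without WT1) when each library was left out. Without WT1, the count was 231 with the length trend, 412 with DESeq2, 230 with library totals only, and 89, 141, 517, 73 and 65 when WT2, WT3, KO1, KO2 or KO3 was left out too. The lone WT library left without WT2 or WT3 was assumed to vary like KO. Cytosolic members called were 0 with all 6, 0 to 1 over the left-out libraries, and 1 (Rps4l) with quality weights and, without WT1, with the length trend, DESeq2, library totals, the block, or KO1 also left out; mitochondrial members called were 0 in every setting run. The median log2 fold change ran from −0.14 to −0.06 (cytosolic) and from −0.34 to −0.0271 (mitochondrial, without WT1) over the left-out libraries. It was 0.00 (0.000735) for the cytosolic class with the length trend. Without WT1 the cytosolic median was −0.118, −0.121, −0.070, −0.124 and −0.154 when WT2, WT3, KO1, KO2 or KO3 was left out too. For the mitochondrial class without WT1 the median was −0.0272 with the trend. It was −0.0159, −0.084, −0.052 and −0.045 when WT2, WT3, KO2 or KO3 was left out too, and 0.00 (0.000590) when KO1 was. The difference in share of counts (KO minus WT) ran from −0.176 to −0.0513 percentage points (cytosolic) and from −0.115 to −0.0109 (mitochondrial), and that of the log2 ratio from −0.08 to 0.26. The cause of these changes was not tested.

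Libraries of the same number did not deviate together from their group means (r = −0.046, −0.0356 and −0.00911 for numbers 1, 2 and 3). With WT1 far from WT2 and WT3, this check could miss a shared batch, and the titles give only the number. With the replicate number as a block, 0 genes were called over all 6 libraries, and 570 without WT1, 1 of them a cytosolic member. The mitochondrial median without WT1 was then 0.00 (0.00332). In that fit KO1 was alone in its block and carried no information on genotype. It is therefore nearly the fit without WT1 and KO1 (Rps4l −0.73 in both), and the 2 are not separate support for the call of Rps4l. With 3 libraries a group, differences near 0.1 on the log2 scale were about the size of the SE of single genes.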
